A study of Mus musculus with 6 samples.

Results

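The desmosomal plaque and cadherin genes examined here were 8 named mouse genes, out of 55471 genes in the count table: the plakin Dsp, the armadillo-repeat plaque genes Jup, Pkp1, Pkp2, Pkp3 and Pkp4, and the desmosomal cadherins Dsg2 and Dsc2. They were taken from a list of names, and 6 of the 8 had enough counts to be tested, against 13044 genes of the whole table. The libraries were total RNA of cultured undifferentiated pleomorphic sarcoma (UPS) cells, a mouse soft-tissue tumour line labelled as metastatic. There were 3 libraries labelled Setd1a Knock Out (KO) and 3 labelled WT and control, and the titles give each group a tag of its own, AAV2 for the controls. Setd1a encodes a histone methyltransferase that acts on histone H3 at active promoters. The comparison asked how the levels of these genes differed between the KO and the control libraries. All were grown in DMEM with serum and antibiotics. The labels give neither the meaning of the tags, nor whether the KO is 1 clone, nor whether replicates were separate cultures. The p-values below therefore speak of differences among these particular libraries, whose spread may be technical, and a difference between the tags cannot be told apart from the genotype.

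A desmosome is a spot-like junction that couples the intermediate filaments of neighbouring cells. Its cadherins, the desmogleins and desmocollins, cross the membrane and bind the cadherins of the next cell. Inside the cell their tails bind plakoglobin (Jup) and the plakophilins (Pkp), which in turn hold desmoplakin (Dsp), and desmoplakin ties the plaque to the filaments. Desmosomes are known from epithelia and heart muscle; mesenchymal cells usually lack them, although several plaque proteins also occur in adherens junctions, where classical cadherins bind beta-catenin.

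Desmoplakin was the gene of this set that differed: its transcript was 1.74-fold higher in the KO libraries, with no overlap between the groups. None of the other 5 tested genes passed an adjusted p of 0.05. Their fitted ratios of KO to control lay between 0.963 and 1.23 without pairing. The desmoglein Dsg2 and the plakophilin Pkp1 were close to absent from both groups. The call on Dsp depended on how the libraries were modelled: it passed an adjusted p of 0.05 in edgeR when all libraries were compared in pairs of the same replicate number, and missed it in the same test without pairing. DESeq2 called it either way, unpaired edgeR called it when no filter on low counts was used (adjusted p = 0.034), and paired edgeR without pair 3 did not (adjusted p = 0.0611).

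Promoter windows were available for 3 of the 8 members, Dsp, Jup and Pkp4, and a window of each is shown. Each runs 5′ to 3′ on the gene's strand, from 250 bases before the start of transcription to 50 after it (RefSeq, GRCm38.p6). Capitals mark the E-box letters CAGGTG or CACCTG, which Snail and Zeb repressors of epithelial genes are known to bind. The Dsp window is chr13:38151044-38151343 on the plus strand, the Jup window chr11:100397741-100398040 on the minus strand, and the Pkp4 window chr2:59160600-59160899 on the plus strand.
Dsp: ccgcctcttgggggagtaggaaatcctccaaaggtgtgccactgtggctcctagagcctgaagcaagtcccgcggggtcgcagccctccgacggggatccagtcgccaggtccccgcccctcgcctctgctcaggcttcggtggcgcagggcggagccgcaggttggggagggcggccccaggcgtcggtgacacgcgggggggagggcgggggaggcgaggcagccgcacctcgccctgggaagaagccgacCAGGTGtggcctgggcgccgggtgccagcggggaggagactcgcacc
Jup: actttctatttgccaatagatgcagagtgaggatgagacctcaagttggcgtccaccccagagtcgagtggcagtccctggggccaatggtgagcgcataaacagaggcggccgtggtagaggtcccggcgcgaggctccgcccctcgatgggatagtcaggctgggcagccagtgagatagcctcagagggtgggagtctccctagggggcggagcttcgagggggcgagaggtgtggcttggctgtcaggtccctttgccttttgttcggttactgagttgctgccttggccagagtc
Pkp4: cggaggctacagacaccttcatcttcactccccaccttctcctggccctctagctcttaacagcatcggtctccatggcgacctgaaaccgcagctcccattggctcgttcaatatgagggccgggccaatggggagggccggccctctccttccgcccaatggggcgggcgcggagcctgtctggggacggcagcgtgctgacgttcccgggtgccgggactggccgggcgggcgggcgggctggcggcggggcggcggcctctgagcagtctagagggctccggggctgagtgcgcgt
The Dsp window held 1 such E-box, which began at base 4 of the transcript, while those of Jup and Pkp4 held 0. A window at a second listed start of Pkp4, chr2:59161619-59161918, held 1. Of all 32851 windows in the table, 20.2% held at least 1, counting both strands. The 3 windows shown were rich in G and C, at 73% for Dsp, 60.7% for Jup and 69.3% for Pkp4, against a median of 52.7% over all windows. The GC box, GGGCGG or CCGCCC on either strand, occurred 4 times in the Dsp window, 2 times in that of Jup and 6 times in that of Pkp4, and 35.7% of all windows held at least 1. The AP-1 letters TGANTCA occurred in none of the 3 windows and in 7.81% of all windows; they read the same on both strands. These matches are descriptions of the letters in these windows.

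The 6 libraries held between 17749533 and 18272622 counts. The Setd1a transcript had 53.2, 68.6 and 56.2 CPM (counts per library, scaled to a common size) in the KO libraries, against 70.9, 75.2 and 73.4 CPM in the controls, so the KO libraries lay lower but kept most of the transcript. The log2 change of Setd1a was -0.30 ± 0.12 (SE; adjusted p = 0.426 in edgeR's quasi-likelihood test), and -0.31 ± 0.09 when libraries of the same replicate number were compared (a block in the fit; SE; adjusted p = 0.0913). Of its exonic bases, 52.3% overlap 2 other genes, which held 1 count each in all libraries, so its counts are uncertain. Counts per gene do not show whether the coding sequence was disrupted. Levels of the 12 markers of the labelled mesenchymal cell ranged widely. The highest was the intermediate filament gene Vim, at 5423 ± 346 CPM in the KO libraries and 6140 ± 467 CPM in the controls (SD, n = 3). The lowest was Lum, at 0.0735 ± 0.0317 CPM in the KO libraries and 0.278 ± 0.0543 CPM in the controls (SD, n = 3). These rest on 2, 1 and 1 counts in the KO libraries and 6, 4 and 5 in the controls, too few to be tested.

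Desmoplakin is the plakin that links the plaque to intermediate filaments. Dsp (ENSMUSG00000054889, GRCm38 chromosome 13, positions 38151294 to 38198577, plus strand) had 359, 438 and 360 counts in KO replicates 1, 2 and 3, against 177, 254 and 226 counts in control replicates 1, 2 and 3. In scaled units these were 19.7, 24.3 and 19.8 CPM in the KO libraries and 9.78, 14.2 and 12.7 CPM in the controls. The lowest KO library lay above the highest control library, and replicate 2 was the highest in both groups. The means were 21.3 ± 2.61 CPM in the KO libraries and 12.2 ± 2.23 CPM in the controls (SD, n = 3). An exact permutation test, two-sided, gave p = 0.1, which no comparison of 3 with 3 can go below. Dsp was the 1 tested member whose groups did not overlap; among all genes tested, 7.49% had every KO library above every control library and 7.77% every KO library below.

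The fitted log2 change of Dsp was 0.80 ± 0.17 (SE, 95% interval 0.43 to 1.17) in edgeR's quasi-likelihood test without pairing, with an adjusted p of 0.18. When the replicate number entered the fit as a block, the change was 0.81 ± 0.12 (SE, 95% interval 0.55 to 1.07; adjusted p = 0.0203 in edgeR). Dsp ranked 25 by p among the 13044 genes in the blocked test and 45 without the block. Within pairs of the same number the log2 ratio of KO to control was 1.01, 0.77 and 0.64. All 3 pairs pointed the same way. DESeq2 without the block also called Dsp higher (adjusted p = 0.00761), and limma-voom did not (adjusted p = 0.196). Without pair 3 the blocked test no longer called Dsp (log2 change 0.88, adjusted p = 0.0611).

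The spread of Dsp between replicates was larger than counting alone would give. Its coefficient of variation was 12.3% in the KO libraries and 18.2% in the controls, while counting error at these depths gives 5.09% in the KO libraries and 6.76% in the controls. Of its exonic bases, 5.17% overlap the antisense gene Gm10129, which held 1 count in all libraries together. The counts do not separate the long and short splice forms of desmoplakin.

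**Figure D1:**
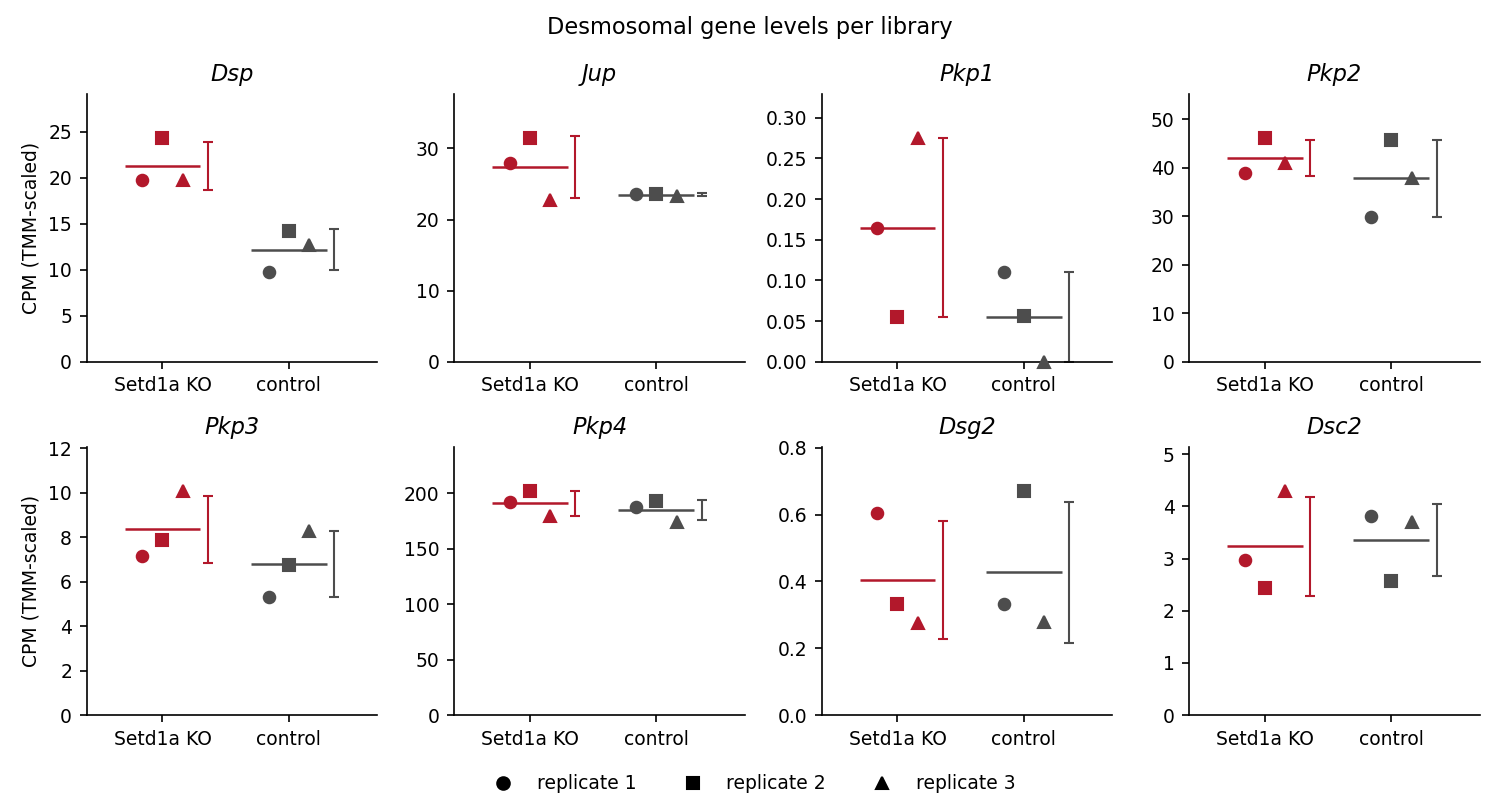
CPM of the 8 genes in each library; each panel has its own axis from 0, points are replicates 1 to 3, the horizontal line is the group mean and the bar beside it ± 1 SD (n = 3). For Dsp the KO libraries (19.7 to 24.3 CPM) all lie above the controls (9.78 to 14.2 CPM), and for the other 7 genes the groups overlap.

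Plakoglobin, also called gamma-catenin, is the plaque protein that desmosomes and adherens junctions share. Jup (ENSMUSG00000001552, chromosome 11, positions 100368958 to 100397763, minus strand) had 28.0, 31.4 and 22.7 CPM in the KO libraries, against 23.6, 23.6 and 23.3 CPM in the controls. KO replicates 1 and 2 lay above all controls and KO replicate 3 below them, so the groups overlapped. The log2 change was 0.22 ± 0.14 (SE, 95% interval -0.09 to 0.53; edgeR adjusted p = 0.675). With the block it was 0.21 ± 0.11 (SE; adjusted p = 0.347). The control libraries varied by only 0.756% of their mean, less than the 4.87% that counting error would give, while the KO libraries varied by 16%. The small spread of Jup in the controls is therefore no measure of its precision.

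The plakophilins bind desmoplakin and cluster the cadherins. Pkp2 (ENSMUSG00000041957, chromosome 16, positions 16213318 to 16272712, plus strand), the plakophilin of heart muscle and of many epithelia, had 38.8, 46.1 and 40.9 CPM in the KO libraries, against 29.9, 45.7 and 37.8 CPM in the controls. The groups overlapped, and replicate 2 was again the highest in both. Its log2 change was 0.15 ± 0.16 (SE, 95% interval -0.20 to 0.50; edgeR adjusted p = 0.858). The within-pair log2 ratios of Pkp2 were 0.38, 0.01 and 0.11.

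Pkp3 (ENSMUSG00000054065, chromosome 7, positions 141078218 to 141090510, plus strand), a plakophilin found in most epithelial desmosomes, had 7.15, 7.87 and 10.05 CPM in the KO libraries, against 5.31, 6.75 and 8.29 CPM in the controls. In both groups replicate 3 was the highest, and within each pair the KO library was the higher one, by log2 ratios of 0.42, 0.22 and 0.28. Its log2 change was 0.30 ± 0.21 without the block and 0.31 ± 0.13 with it (SE). The unadjusted p was 0.183 without the block and 0.0438 with it, and the adjusted p 0.725 and 0.241 in edgeR. Pkp3 therefore had the second largest change of the tested members and did not pass.

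Pkp4 (ENSMUSG00000026991, chromosome 2, positions 59160850 to 59355208, plus strand), also known as p0071, is a member of the p120-catenin group found in both adherens junctions and desmosomes. It had 192, 201 and 179 CPM in the KO libraries, against 187, 192 and 174 CPM in the controls. The groups overlapped almost wholly. The log2 change was 0.05 ± 0.10 (SE, 95% interval -0.18 to 0.27; edgeR adjusted p = 0.953). Pkp4 had 3114 to 3632 counts per library, and its interval was the narrowest of the 6.

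Pkp1 (ENSMUSG00000026413, chromosome 1, positions 135871395 to 135919207, minus strand), the plakophilin of stratified epithelium, had 3, 1 and 5 counts in the KO libraries and 2, 1 and 0 in the controls. A count of 0 in a library of this size allows a level of up to 0.168 CPM. The group sums were 9 counts in the KO libraries and 3 in the controls, a ratio of 2.97 with an exact Poisson 95% interval from 0.741 to 17.1 that covers counting error only. The gene fell under the filter on low counts, and no difference was detectable at this depth.

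Desmogleins and desmocollins are the adhesive cadherins, and Dsg2 and Dsc2 are the pair known from nearly all tissues with desmosomes. Dsg2 (ENSMUSG00000044393, chromosome 18, positions 20558074 to 20604521, plus strand) had 11, 6 and 5 counts in the KO libraries and 6, 12 and 5 in the controls. The sums were 22 and 23 counts, a ratio of 0.947 (exact Poisson 95% interval 0.503 to 1.78, counting error only), so no difference was detectable. Dsc2 (ENSMUSG00000024331, chromosome 18, positions 20030633 to 20059554, minus strand) had 2.97, 2.44 and 4.28 CPM in the KO libraries, against 3.81, 2.57 and 3.69 CPM in the controls. Its groups overlapped, and its log2 change was -0.06 ± 0.27 (SE, 95% interval -0.65 to 0.54; edgeR adjusted p = 0.98). The pairs of Dsc2 went both ways, with log2 ratios of -0.35, -0.07 and 0.21. Dsc2 had 44 to 78 counts per library. A change as large as that of Dsp lies outside its 95% interval in either direction, while a change as large as that of Jup lies inside it.

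In all, edgeR without the block called 0 of the 6 tested members higher and 0 lower at an adjusted p under 0.05, where 0% of all genes tested were called in either direction. At an unadjusted p under 0.05 it had 1 member higher, Dsp, and 0 lower, against 5.5% of all genes higher and 4.51% lower. DESeq2 without the block called 1 member higher, Dsp, and 0 lower, with 0.773% of its genes higher and 0.332% lower. With the block DESeq2 again called 1 higher and 0 lower, with 1.33% of its genes higher and 1.33% lower. Limma-voom called 0 members and 0 genes, and had 1 member at an unadjusted p under 0.05. With the replicate block edgeR called 1 member higher and 0 lower, where 1.43% of all genes were called higher and 0.851% lower. Before adjustment, 2 members in the blocked fit had a p under 0.05 and were higher, Dsp and Pkp3, and 0 were lower, against 9.94% of all genes higher and 9.62% lower. The log2 change lay above 0 for 5 of the 6 members, against 50.2% of all genes tested. Their median log2 change was 0.19, and that of all genes tested 0.00066. The KO library was the higher one in all 3 pairs for 4 members, Dsp, Pkp2, Pkp3 and Pkp4, and 19.9% of all genes showed that pattern. With so few genes, and a within-pair ratio as small as 0.01 among them, these counts describe the members only.

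**Figure D2:**
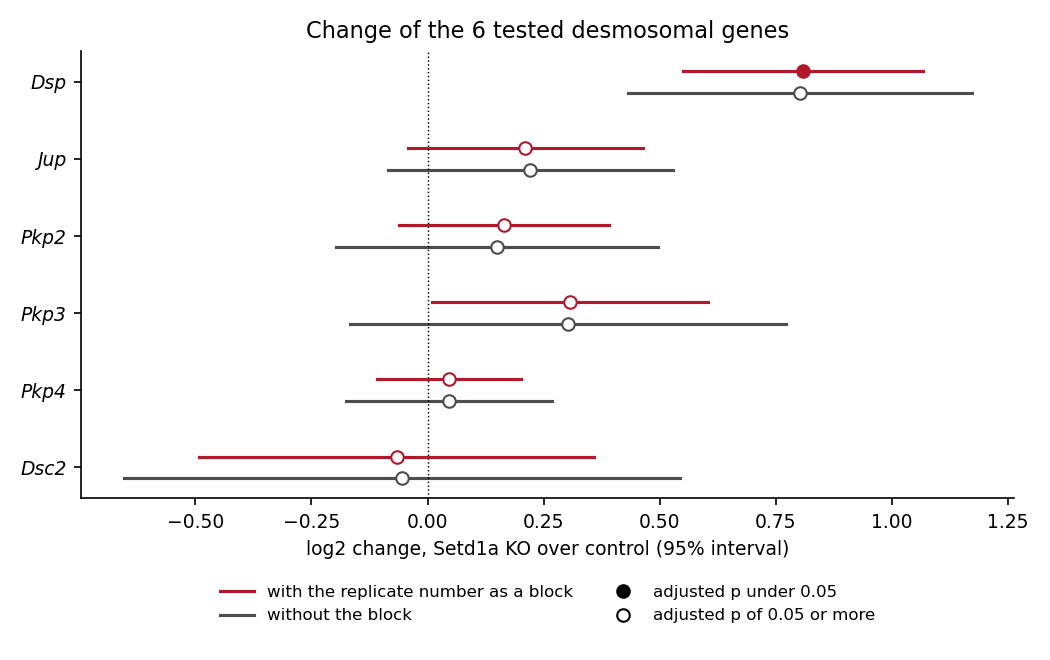
Log2 change of KO over control for the 6 tested genes with its 95% interval, from edgeR with and without the replicate number as a block; filled points have an adjusted p under 0.05. Both intervals of Dsp lie above 0 (0.43 to 1.17 without the block), as does that of Pkp3 with the block (0.0105 to 0.604). The filled point is Dsp with the block (edgeR adjusted p = 0.0203).

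Levels of different genes were compared as CPM per kilobase of annotated exon. In that unit Pkp4 was the most abundant, at 33.4 ± 1.94 in the KO libraries and 32.4 ± 1.64 in the controls (SD, n = 3). Pkp2 followed at 7.83 ± 0.695 in the KO libraries and 7.05 ± 1.47 in the controls, and then Jup at 4.26 ± 0.681 in the KO libraries and 3.65 ± 0.0276 in the controls (SD, n = 3). Pkp3 had 2.31 ± 0.418 in the KO libraries and 1.87 ± 0.412 in the controls, and Dsp 2.20 ± 0.27 in the KO libraries and 1.26 ± 0.23 in the controls (SD, n = 3). Dsc2 had 0.612 ± 0.18 in the KO libraries and 0.636 ± 0.131 in the controls, while Dsg2 and Pkp1 stayed under 0.081 in every library (SD, n = 3). The order of the means was the same in both groups. Pkp3 and Dsp were the neighbours that did not separate among the tested genes: in KO replicates 1 and 2 Dsp was the higher of the pair, and in KO replicate 3 and all controls Pkp3 was. Dsg2 and Pkp1 did not separate either.

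**Figure D3:**
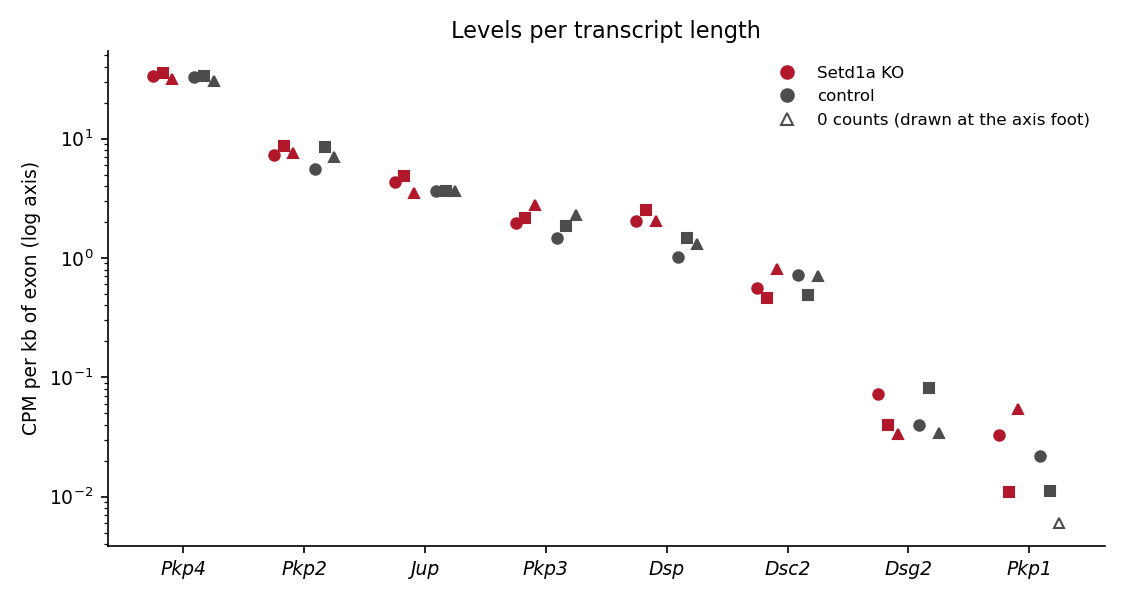
Level of each gene as CPM per kilobase of exon on a log axis, in order of the KO mean, with circles, squares and triangles for replicates 1, 2 and 3; the open triangle is a library with 0 counts. Pkp4 is highest at 33.4 in KO and 32.4 in control libraries, and the cadherins Dsc2 and Dsg2 and the plakophilin Pkp1 lie lowest.

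Expressed as a share of the summed CPM per kilobase of the 8 genes, Pkp4 held 65.9% ± 1.25 in the KO libraries and 69.05% ± 2.93 in the controls, and Dsp 4.33% ± 0.292 in the KO libraries and 2.68% ± 0.392 in the controls (SD, n = 3). Dsg2 and Dsc2 together with Pkp1 made up the smallest shares, the largest of them being Dsc2 with 1.22% ± 0.42 in the KO libraries and 1.37% ± 0.341 in the controls (SD, n = 3).

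Ratios between 2 genes of the same library do not depend on the scaling between libraries, and they showed Dsp higher relative to its partners. The ratio of Dsp to Jup, in CPM per kilobase, was 0.47, 0.515 and 0.579 in the KO libraries, against 0.276, 0.400 and 0.362 in the controls. The ratio of Dsp to Pkp2 was 0.282, 0.292 and 0.268 in the KO libraries, against 0.182, 0.172 and 0.186 in the controls. For Dsp to Pkp4 the values were 0.0608, 0.0713 and 0.0652 in the KO libraries, against 0.0308, 0.0435 and 0.0429 in the controls. In these 3 ratios every KO library lay above every control library. The KO mean was 1.51 times the control mean for Dsp to Jup, 1.56 times for Dsp to Pkp2 and 1.68 times for Dsp to Pkp4. The groups overlapped for Dsp to Pkp3, at 1.03, 1.15 and 0.736 in the KO libraries and 0.690, 0.786 and 0.572 in the controls, and for Dsp to Dsc2, with means of 3.86 ± 1.47 in the KO libraries and 2.096 ± 0.831 in the controls (SD, n = 3).

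The ratio of Dsp to the related plakin Ppl, which encodes periplakin, averaged 2.26 ± 0.35 in the KO libraries and 1.27 ± 0.371 in the controls (SD, n = 3), again with no overlap. Jup relative to Ctnnb1, its close relative beta-catenin, averaged 0.0443 ± 0.00348 in the KO libraries and 0.0398 ± 0.00233 in the controls (SD, n = 3), with overlap. Of the 7 ratios compared, the 4 without overlap had p = 0.1 in a two-sided exact permutation test, the lowest value that 3 libraries against 3 allow, and an adjusted p of 0.175. The other 3 had an exact permutation p of 0.2 and an adjusted p of 0.2. None passed, and this unpaired test cannot give a p under 0.05 with 3 libraries against 3. Within pairs of the same replicate number the KO library had the higher value in all 3 pairs for each of the 7 ratios. This included the ratios with overlap between the groups. For Jup to Ctnnb1 the KO and control values of pair 3 were nearly equal, at 0.04098 and 0.04083. All ratios but Jup to Ctnnb1 share Dsp as numerator, so they repeat the Dsp difference in part and are not separate evidence.

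**Figure D4:**
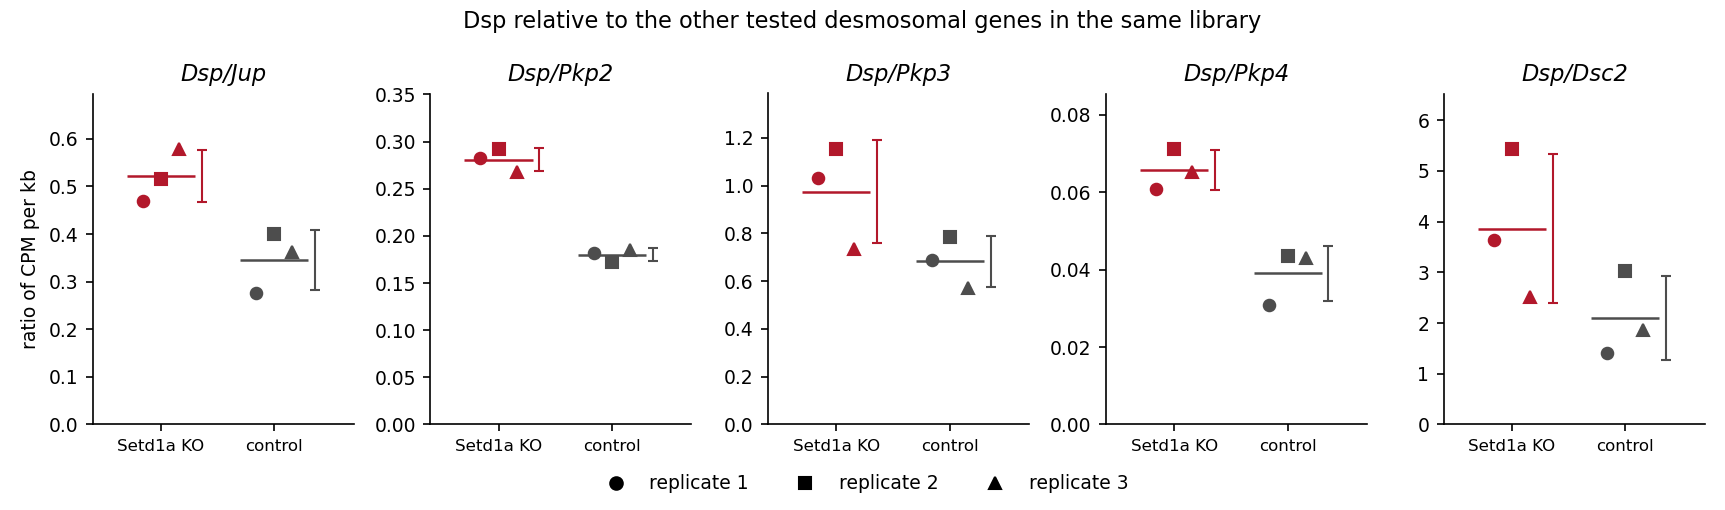
Ratio of Dsp to each of the other tested genes within the same library, in CPM per kilobase, with axes from 0; points are replicates 1 to 3, lines are group means and bars ± 1 SD (n = 3). Dsp to Pkp2 has the tightest groups (0.268 to 0.292 in KO and 0.172 to 0.186 in control libraries), and the groups overlap for Dsp to Pkp3 and Dsp to Dsc2.

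Among the members, Dsp varied over the 6 libraries most like Pkp2 (Pearson r = 0.73 of log2 CPM) and Jup (r = 0.68). Its correlation with Dsc2 was -0.41. Among other genes with a mean of at least 5 CPM, the 5 most like Dsp were Cry2, Cables2, Prrg4, Tmem120a and Ckb, with r between 0.986 and 0.99 over 6 libraries. Of the 9546 genes compared, 141 had an r over 0.9; the points are 6 libraries that share the group difference, and the values are a description only. Ckb had 19.7 ± 2.56 CPM in the KO libraries and 12.5 ± 2.39 CPM in the controls, and Prrg4 21.1 ± 2.77 CPM in the KO libraries and 13.7 ± 2.65 CPM in the controls (SD, n = 3). Both were called higher in edgeR's blocked test (adjusted p = 0.0333 and 0.0316), where 1.43% of all genes were. Cry2, Cables2 and Tmem120a were not called (edgeR adjusted p = 0.126, 0.296 and 0.228). These 5 genes were picked for their likeness to Dsp in the same libraries. Their differences follow in part from that choice and are no separate evidence.

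The remaining desmosomal genes gave little signal. Of 8 others listed, the desmogleins Dsg1a, Dsg1b and Dsg1c had 0 counts in every library, Dsg3, Dsg4, Dsc1 and Dsc3 stayed under 1 CPM, and 1 was tested. That gene, Perp, a membrane protein of desmosomes and a p53 target, had 2.65 ± 0.824 CPM in the KO libraries and 2.67 ± 0.428 CPM in the controls (SD, n = 3; edgeR adjusted p = 0.997, and 0.956 with the block).

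The lists of intermediate filament genes and of plakin and cornified envelope genes also included genes called higher in the blocked test. None of the called genes in these lists was a plakin. Without the block edgeR called 0 genes over the whole table, and the calls that follow are those of edgeR with the block, where 1.43% of all genes were called higher and 0.851% lower. Calls of the list genes in DESeq2 were not tabulated. Of 8 tested intermediate filament genes, 2 were called higher and 0 lower, against those shares of all genes, with a median log2 change of 0.29. Krt19, a keratin of simple epithelia, had 6.76 ± 2.62 CPM in the KO libraries and 3.81 ± 1.61 CPM in the controls (SD, n = 3; edgeR adjusted p = 0.0327), and Krt80 had 24.6 ± 7.21 CPM in the KO libraries and 16.1 ± 5.03 CPM in the controls (SD, n = 3; edgeR adjusted p = 0.0485). The groups of both keratins overlapped. The mesenchymal filament genes Nes and Vim had log2 changes of 0.32 and -0.18 (edgeR adjusted p = 0.119 and 0.363). Of 5 tested plakin and cornified envelope genes, 1 was called higher and 0 lower, against 1.43% and 0.851% of all genes: Sprr1a, a precursor of the cornified envelope, at 5.82 ± 2.06 CPM in the KO libraries and 1.76 ± 0.59 CPM in the controls (SD, n = 3; edgeR adjusted p = 0.0155). The epiplakin gene Eppk1 had a log2 change of 1.31 (edgeR adjusted p = 0.122), Cdsn, which encodes corneodesmosin, 0.14 (0.814) and the spectraplakin gene Macf1 0.06 (0.722).

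Among neighbouring junctions, 0 of 13 tested adherens junction genes were called in either direction, and their median log2 change was 0.06. Ctnnd1, which encodes p120-catenin, had a log2 change of 0.37 (edgeR adjusted p = 0.106), the cell adhesion gene Nectin3 -0.23 (0.155), Pdlim5 0.19 (0.199) and the mesenchymal cadherin gene Cdh2 -0.09 (0.557). Of 14 tested tight junction genes, 2 were called higher and 0 lower, against 1.43% and 0.851% of all genes, with a median log2 change of 0.14. Cgnl1, which encodes the plaque protein paracingulin, had 184 ± 15.7 CPM in the KO libraries and 138 ± 19.7 CPM in the controls (SD, n = 3; edgeR adjusted p = 0.0391). F11r, which encodes the adhesion molecule JAM-A, had 11.1 ± 2.67 CPM in the KO libraries and 7.26 ± 1.52 CPM in the controls (SD, n = 3; edgeR adjusted p = 0.0487). For both, every KO library lay above every control library. That held for 4 of the 14 tested genes, Cgn and Patj included, against 7.49% of all genes. For 1, Ocln, every KO library lay below every control library, against 7.77% of all genes. Ocln had 0.532 ± 0.136 CPM in the KO libraries and 0.743 ± 0.0876 CPM in the controls (SD, n = 3). Its adjusted p was 0.548 in edgeR with the block. Cgn and Patj had log2 changes of 0.88 and 0.42 and missed the threshold (edgeR adjusted p = 0.104 and 0.139).

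Of 7 tested genes in the list of cardiac intercalated disc partners, 0 were called. The list also holds genes of other cell parts, such as Lmna of the nuclear lamina. Lmna and Ank3 came nearest, with log2 changes of -0.32 and -0.22 (edgeR adjusted p = 0.152 and 0.187), and the connexin gene Gja1 had -0.15 (0.319).

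Genes that act on desmosomes were not called. Among 21 tested genes of assembly and shedding, 0 passed in either direction and the median log2 change was 0.04; Ctnnbip1, an inhibitor of beta-catenin, had the smallest adjusted p, 0.0615 in edgeR, at a log2 change of -0.39. Kif5b, Flot1 and Gsk3b followed with log2 changes of 0.24, -0.23 and 0.15 (edgeR adjusted p = 0.215, 0.304 and 0.345). Among 14 tested transcription factors known from junction genes, 0 passed. Esrp2, a splicing regulator of epithelia kept in this list, had a log2 change of 1.39 (edgeR adjusted p = 0.0858) at 0.937 ± 0.306 CPM in the KO libraries and 0.353 ± 0.131 CPM in the controls (SD, n = 3). Tcf3, Twist1 and Foxc2 had log2 changes of -0.20, -0.17 and -0.20 (edgeR adjusted p = 0.201, 0.227 and 0.254). The tested Snail and Zeb genes went both ways. The log2 change was 0.19 for Zeb2, 0.07 for Snai2, -0.04 for Zeb1 and -0.05 for Snai1 (edgeR adjusted p = 0.262, 0.766, 0.857 and 0.893).

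**Figure D5:**
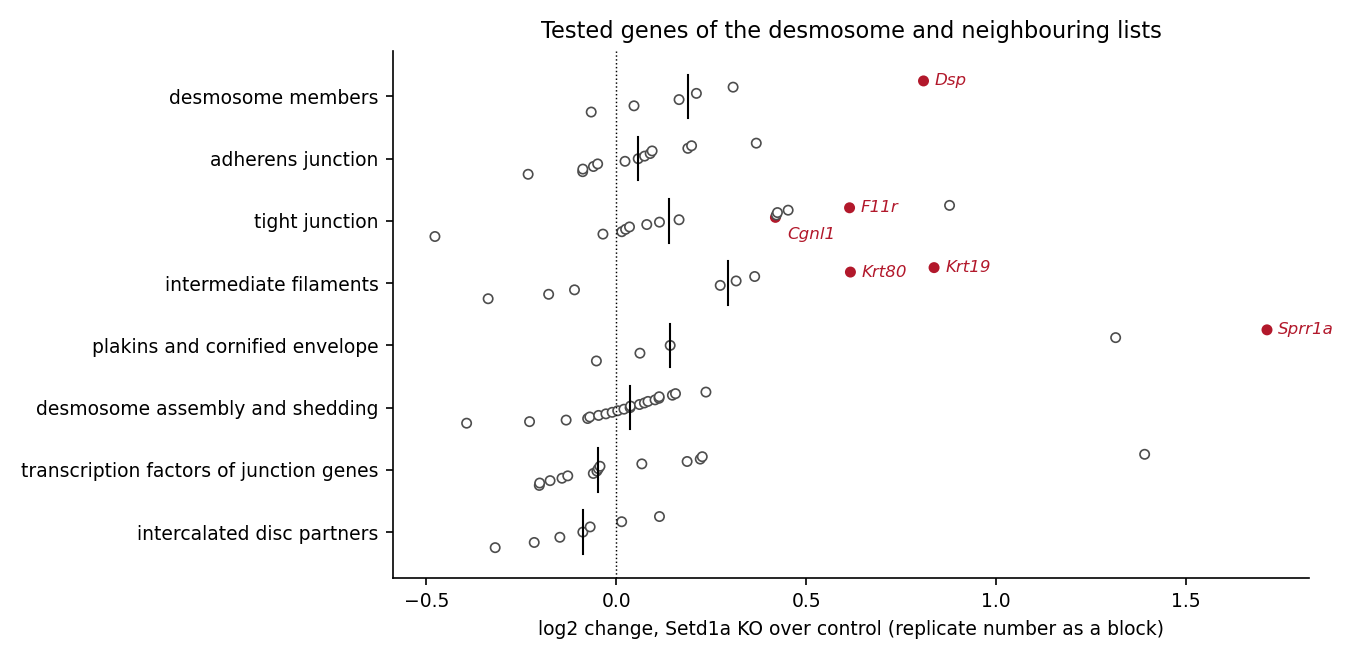
Log2 change of KO over control with the replicate number as a block, for every tested gene of the desmosome set and of 7 neighbouring lists; red filled points are called at an adjusted p under 0.05 and named, and the vertical bar is the list's median. Sprr1a (1.71), Krt19 (0.84) and Dsp (0.81) are the largest called changes.

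Markers of other cell types were given beside Dsp because desmoplakin is typical of epithelia and heart. The 14 epithelial markers summed to 51.7, 83.7 and 98.4 CPM in the KO libraries, against 53.6, 80.4 and 92.5 CPM in the controls, with 9 of the 14 under 1 CPM in every library, Epcam and Cdh1 among them. The 12 keratinocyte markers summed to 7.98 ± 0.709 CPM in the KO libraries and 7.7 ± 0.244 CPM in the controls (SD, n = 3), and 9 of them, Krt5 and Krt14 included, stayed under 1 CPM. Both sums overlapped between the groups. Most of the epithelial sum was the keratin gene Krt18, at 55.6 ± 15.4 CPM in the KO libraries and 59.98 ± 16.6 CPM in the controls (SD, n = 3). Of the 5 tested epithelial markers, 4 had a log2 change above 0 without the block, against 50.2% of all genes tested. Their median was 0.32 without the block. In the blocked test 1 of them, Krt19, was called higher, against 1.43% of all genes. Krt8 had 12.7 ± 5.51 CPM in the KO libraries and 10.2 ± 3.24 CPM in the controls (SD, n = 3; edgeR adjusted p = 0.401). The 10 cardiac markers summed to 12.6, 16.4 and 14.6 CPM in the KO libraries, against 8.07, 8.2 and 8.85 CPM in the controls (two-sided exact permutation test, p = 0.1, its lower limit here). Most of that sum was Nppb, a natriuretic peptide gene, at 11.1 ± 2.53 CPM in the KO libraries and 6.11 ± 0.596 CPM in the controls (SD, n = 3; edgeR adjusted p = 0.0289 with the block). Tnnt2, which encodes cardiac troponin T, had 3.30, 2.11 and 1.703 CPM in the KO libraries, against 1.22, 1.28 and 0.952 CPM in the controls. Every KO library lay above every control library for Tnnt2, as for 7.49% of all genes tested. The log2 change of Tnnt2 was 1.02 ± 0.25 with the block (SE, edgeR adjusted p = 0.0656). The third tested cardiac marker, Tnni3, had a log2 change of -0.12 (edgeR adjusted p = 0.904). Myh6, Myh7, Actc1, Pln and Mybpc3 had 0 counts in every library. Whether cells of another type had a part in the Dsp difference was not tested, and in bulk RNA more cells with a transcript and more transcript per cell cannot be told apart.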

How the data were processed

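RNA of 3 Setd1a KO and 3 control libraries was analysed from the table of raw counts that the authors deposited: whole-number counts of reads per Ensembl gene, with no normalization. STAR, featureCounts, DESeq and the mm10 build are named in the submitters' processing notes; for versions, strand setting and annotation release, the entry is: not given in the sources used here. A gene and its antisense partner cannot be told apart unless counting used strand. Groups and replicate numbers came from the sample titles. Symbols, positions and exon lengths came from GENCODE M21 (GRCm38, the assembly mm10 names); 241 of 55471 identifiers had no match. Promoter windows came from a supplied set of windows at RefSeq starts (GRCm38.p6), and this set held 3 of the 8 members.

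Tests ran under R 4.3.3. The main one was that of edgeR 4.0.16 (scaling by TMM, its own filter on low counts, two-sided quasi-likelihood test, Benjamini-Hochberg adjustment over 13044 genes, threshold 0.05); DESeq2 1.42.0 and limma 3.58.1 (voom) were alternatives, with other scalings, filters and left-out libraries. Logged CPM used a prior count of 2. SE is the log2 change divided by the root of F. Libraries within a group differed beyond sampling noise (chi-square per degree of freedom 21.6 to 40.04 over genes with at least 60 counts). Deviations from the group means correlated at 0.15, 0.46 and 0.38 between libraries of the same number, each over the limit of 0.1. The numbers were therefore taken to pair the libraries from these values alone, since no label defines the number. With 17749533 to 18272622 counts per library, a count of 3 is about 0.168 CPM; intervals and floors (3 counts) cover counting error only.

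Members and gene lists were chosen with earlier results of these data known. The genes named were the members, Setd1a, up to 4 tested genes per list with the smallest p in the blocked test, and the 5 genes most like Dsp, leaving out predicted genes. Some other genes are named after their values were seen: the undetected desmosomal and cardiac genes, the markers, the Snail and Zeb genes, and the partners in ratios. The results of 2 further lists of cell junction genes are not reported here.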

Additional observations from a re-analysis of the deposited data

How the results depend on the processing

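The log2 change of Dsp kept its sign under all 18 alternatives, from 0.66 to 0.93, and passed the adjusted threshold in 7 of them, with adjusted p-values between 0.000231 and 0.49. The lowest came from the blocked edgeR test without pair 1. That test and the one without pair 2, also among the 7, rest on fewer libraries, with little left to measure the spread. Jup, Pkp2, Pkp3 and Pkp4 also kept their sign under all 18 and passed in none. Dsc2 was reversed without Setd1a_KO replicate 1 (0.01), without Setd1a_KO replicate 2 (0.12), without control replicate 1 (0.04), without control replicate 3 (0.02) and, with the replicate block, without replicate 1 (0.091); over all alternatives its change ranged between -0.31 and 0.12, it was called in none, and the cause was not tested. The unpaired edgeR test called 0 members and 0 genes. The replicate block called 1 member, Dsp, with 187 genes higher and 111 lower over the whole table. DESeq2 called 1 member, with 93 genes higher and 40 lower. Without a filter on low counts 1 member was called (Dsp, adjusted p = 0.034), with 62 genes higher and 12 lower. The block in DESeq2 called 1 member, with 157 genes higher and 157 lower, and the block with DESeq2's size factors in edgeR called 1 member, with 193 higher and 124 lower. Leaving out 1 library without the block gave 0 called members each time, and 0 to 30 genes higher and 0 to 1 lower; the 30 and 1 came without Setd1a_KO replicate 1. Leaving out 1 pair with the block gave 0 to 1 called members, 0 to 507 genes higher and 0 to 207 lower; the highest counts came without pair 1, it was 140 higher and 54 lower without pair 2, and 0 of either without pair 3, where Dsp also missed the threshold. The cause of these differences was not tested. Scaling moved the median log2 change of all genes by at most 0.03. Dsg2 and Pkp1 are limited by depth, with at most 12 counts in any library.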

Other observations

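The markers of the labelled mesenchymal cell, 12 genes of matrix, filaments and surface, summed to 8816, 7641 and 7594 CPM in the KO libraries, against 9040, 8855 and 9296 CPM in the controls (two-sided exact permutation test, p = 0.1, its lower limit here). Most of that sum was Vim, at 5423 ± 346 CPM in the KO libraries and 6140 ± 467 CPM in the controls (SD, n = 3). Of the 11 tested, 9 had a log2 change below 0 without the block, the exceptions being Dcn and Pdgfrb. Over all genes tested, 50.2% had a change above 0. In this list 0 genes were called with or without the block. Col3a1, a fibrillar collagen, had 230 ± 52.1 CPM in the KO libraries and 296 ± 27.03 CPM in the controls (SD, n = 3; adjusted p = 0.0561 in edgeR's blocked test). Dcn went the other way, at 10.1 ± 2.26 CPM in the KO libraries and 6.37 ± 2.35 CPM in the controls (SD, n = 3). Its adjusted p was 0.0566 in edgeR's blocked test. The remaining marker lists held few detected genes. Skeletal muscle markers summed to 1.07 ± 0.75 CPM in the KO libraries and 0.594 ± 0.0358 CPM in the controls, and endothelial markers to 8.07 ± 0.119 CPM in the KO libraries and 8.13 ± 0.684 CPM in the controls (SD, n = 3). Macrophage markers summed to 24.2 ± 4.18 CPM in the KO libraries and 21.6 ± 1.3 CPM in the controls, and Schwann cell and melanocyte markers to 10.2 ± 1.96 CPM in the KO libraries and 10.7 ± 2.4 CPM in the controls (SD, n = 3). Of these 4 lists, the skeletal muscle one had 0 tested genes, the endothelial and macrophage ones 2 each and the Schwann cell and melanocyte one 3, so they allow few calls, and 0 were made in the blocked test. The 1 called gene of the epithelial list was Krt19.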
